A study of Mus musculus with 6 samples.

Results

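In RAW 264.7 macrophages treated with lipopolysaccharide (LPS), 87 of 10180 measured genes made up a group with strongly lowered RNA. The mean log2 ratio of treated over untreated RNA was -0.8 or below for each of them, and it was below 0 on every array with a value. These thresholds were met by 105 genes, and 18 of those were then left out by name or by the first letters of the symbol. The names left out were Ccn, Cdc, Cdk, Kif, Cenp, Mcm, Bub, Aurk, Plk, Rad and Nup genes together with Id2, Klf2, Cytip, Gclc, Trem2, Cdkn2c, Tk1 and Esco2. The working description of the 87 genes was strongly lowered genes outside the cell cycle, and the genes themselves went against it. By what each is known for, 47 of the 87 act in the spindle, mitosis, DNA replication, repair or chromatin packing of dividing cells, and 27 were on a pair of lists of cell division genes. The group is therefore called here by its rule, the lowered genes, and its remaining 40 genes are described under their own roles. The genes were chosen by these same ratios, so the ratios below are descriptions, without tests.

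RAW 264.7 is a mouse macrophage-like line from a tumour induced by Abelson leukaemia virus, and it divides continuously in culture. The treated cells were kept for 8 h with 100 ng/ml LPS plus 100 pM LPS-binding protein, and the untreated cells were cultured for 8 h without them. Total RNA of both was compared on 6 two-colour arrays, numbered as sets 1, 2 and 3, with treated RNA in Cy5 on 3 arrays and in Cy3 on the rest. Most labels write RAW 264.7 and some RAW 264.4, and they do not say whether the sets were separate cultures, so each set counted as 1 replicate and the spread between sets may be technical.

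LPS is a cell-wall lipid of Gram-negative bacteria that LPS-binding protein hands to CD14 and Toll-like receptor 4 on macrophages. Macrophages activated in this way turn on inflammatory genes and are known to slow or stop their division. Many genes of mitosis carry CCAAT boxes, bound by NF-Y, and a cell-cycle homology region, bound by MuvB complexes that contain B-MYB (Mybl2) or work with FOXM1 when a cell divides and that repress the same genes at rest. Genes of DNA synthesis more often carry E2F motifs.

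Promoter windows of 300 bases, 250 before and 50 after the annotated transcription start, were found in RefSeq's GRCm38.p6 table for 75 of the 87 genes and for 8084 measured genes. For a gene with several listed windows, such as Frmd4b with 3, only the first listed was searched. The windows of 4 genes are shown, because Aspm, Fbxo5 and Fam83d were the 3 lowest of the 87 that held both a CCAAT box and a cell-cycle homology region, and Cldn11 was the lowest of the 87. Capitals mark CCAAT (or ATTGG, the same box on the other strand) and TTTGAA (or TTCAAA). The Aspm window lies at chr1:139454523-139454822 on the plus strand, the Fbxo5 window at chr10:5805416-5805715 on the minus strand, the Fam83d window at chr2:158767849-158768148 on the plus strand and the Cldn11 window at chr3:31149670-31149969 on the plus strand. Each runs from upstream sequence into the first transcribed bases of its gene.
Aspm: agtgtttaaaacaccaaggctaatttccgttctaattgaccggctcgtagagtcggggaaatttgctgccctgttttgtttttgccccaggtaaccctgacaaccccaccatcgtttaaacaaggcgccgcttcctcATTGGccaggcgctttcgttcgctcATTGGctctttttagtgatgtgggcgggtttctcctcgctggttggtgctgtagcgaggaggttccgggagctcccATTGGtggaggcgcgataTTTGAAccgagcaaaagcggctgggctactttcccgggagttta
Fbxo5: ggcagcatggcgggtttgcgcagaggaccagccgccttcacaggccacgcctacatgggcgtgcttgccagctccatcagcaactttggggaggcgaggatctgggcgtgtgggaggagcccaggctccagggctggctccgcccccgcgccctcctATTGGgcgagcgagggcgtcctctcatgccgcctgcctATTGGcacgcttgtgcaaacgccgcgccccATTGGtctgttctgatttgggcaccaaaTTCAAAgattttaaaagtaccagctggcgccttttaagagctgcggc
Fam83d: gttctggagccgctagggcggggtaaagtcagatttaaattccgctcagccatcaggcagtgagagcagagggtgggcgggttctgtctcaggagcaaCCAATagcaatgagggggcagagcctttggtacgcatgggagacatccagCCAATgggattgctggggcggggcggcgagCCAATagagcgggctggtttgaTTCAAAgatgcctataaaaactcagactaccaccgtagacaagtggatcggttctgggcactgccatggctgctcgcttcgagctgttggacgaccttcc
Cldn11: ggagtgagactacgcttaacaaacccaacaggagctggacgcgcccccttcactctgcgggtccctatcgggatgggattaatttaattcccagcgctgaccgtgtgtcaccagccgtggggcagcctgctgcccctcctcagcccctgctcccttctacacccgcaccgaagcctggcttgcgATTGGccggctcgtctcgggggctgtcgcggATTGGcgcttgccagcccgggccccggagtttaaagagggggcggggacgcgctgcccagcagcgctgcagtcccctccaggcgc
Counted from the transcription start, the CCAAT boxes of Aspm began at -113, -88 and -12 and its homology region at 7. In Fbxo5 the boxes began at -93, -55 and -25 and the homology region at 4. In Fam83d the boxes began at -152, -102 and -72 and the homology region at -50. Cldn11 held 2 CCAAT boxes, at -66 and -35, and no TTTGAA on either strand.

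Both strands of each window were searched for short motifs, and overlaps were allowed (a homology region overlapped a CCAAT box or E2F motif in 9 pairs over all measured genes). CCAAT was present in 26 of 39 windows (66.7%) of the lowered genes with spindle or replication roles, in 19 of 36 windows (52.8%) of the lowered genes with other roles, and in 38.8% of the windows of all measured genes. TTTGAA was present in 13 of 39 (33.3%) of the spindle and replication windows, in 4 of 36 (11.1%) of the other lowered genes, and in 13.7% of all. The 2 motifs stood together in 11 spindle and replication windows and in those of Hmgb3 and Frmd4b among the other roles, against 5.59% of all windows. At least 3 CCAAT boxes were found in 8 of 39 (20.5%) of the spindle and replication windows, in 3 of 36 (8.33%) of the other lowered windows and in 4.71% of all. Top2a, which untangles chromosomes, held 6 CCAAT boxes and 2 homology regions.

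E2F motifs (TTTGGCGC, TTTCCCGC or TTTCGCGC) were present in 2 of 39 spindle and replication windows, in 3 of 36 other lowered windows and in 2.94% of all. GC boxes (GGGCGG) were present in 71.8% of the spindle and replication windows, in 69.4% of the other lowered windows and in 54.8% of all. A TATA box (TATAAA) was present in 1 of 39 and 2 of 36 windows, and in 11.2% of all. Consensus motifs of NF-kappaB and of the interferon response were found in 0 of the 75 windows, and in 1.67% and 3.29% of all. A match says only that these letters occur in the window.

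**Figure D1:**
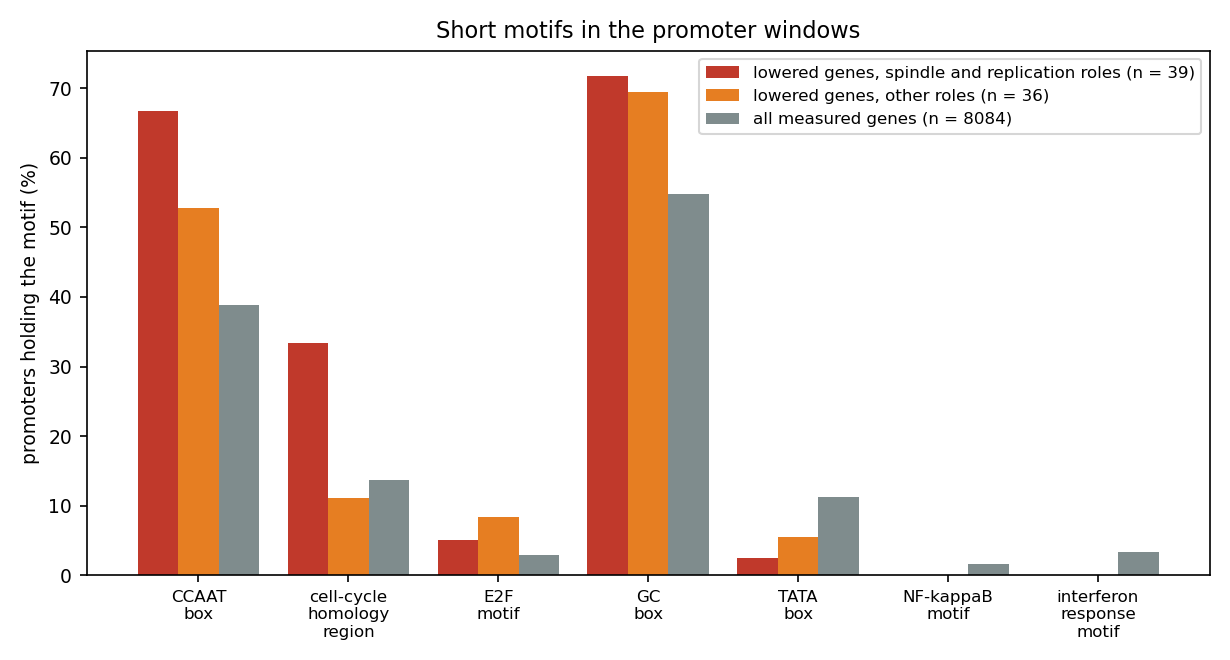
Share of promoter windows (%, vertical axis) that hold each short motif on either strand, for lowered genes with spindle and replication roles (n = 39), lowered genes with other roles (n = 36) and all measured genes (n = 8084). The CCAAT box stands at 66.7%, 52.8% and 38.8%, and the cell-cycle homology region at 33.3%, 11.1% and 13.7%.

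All values are log2 ratios. The deposited ratio was taken to be Cy5 over Cy3, since Cy3 is the control and Cy5 the test channel in the labels, and it was turned to treated over untreated where treated RNA was in Cy3. This direction is likely but not stated, and under the opposite reading every fall below would be a rise. The lowered genes ranged from -1.55 to -0.80, with a median of -0.95, and a value of -1.55 means 2.94-fold less RNA. The cells were measured in bulk, where fewer cells that express a gene and less RNA per cell cannot be told apart. By array, the median over the lowered genes was -1.04, -0.93 and -0.98 in sets 1, 2 and 3 with treated RNA in Cy5, and again -1.04, -0.93 and -0.98 with treated RNA in Cy3. All 87 genes passed limma's test at an adjusted p under 0.05, where 15.8% of the 10180 genes passed as lower and 16.5% as higher, and nothing is read from that count since the same ratios chose the genes.

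**Figure D2:**
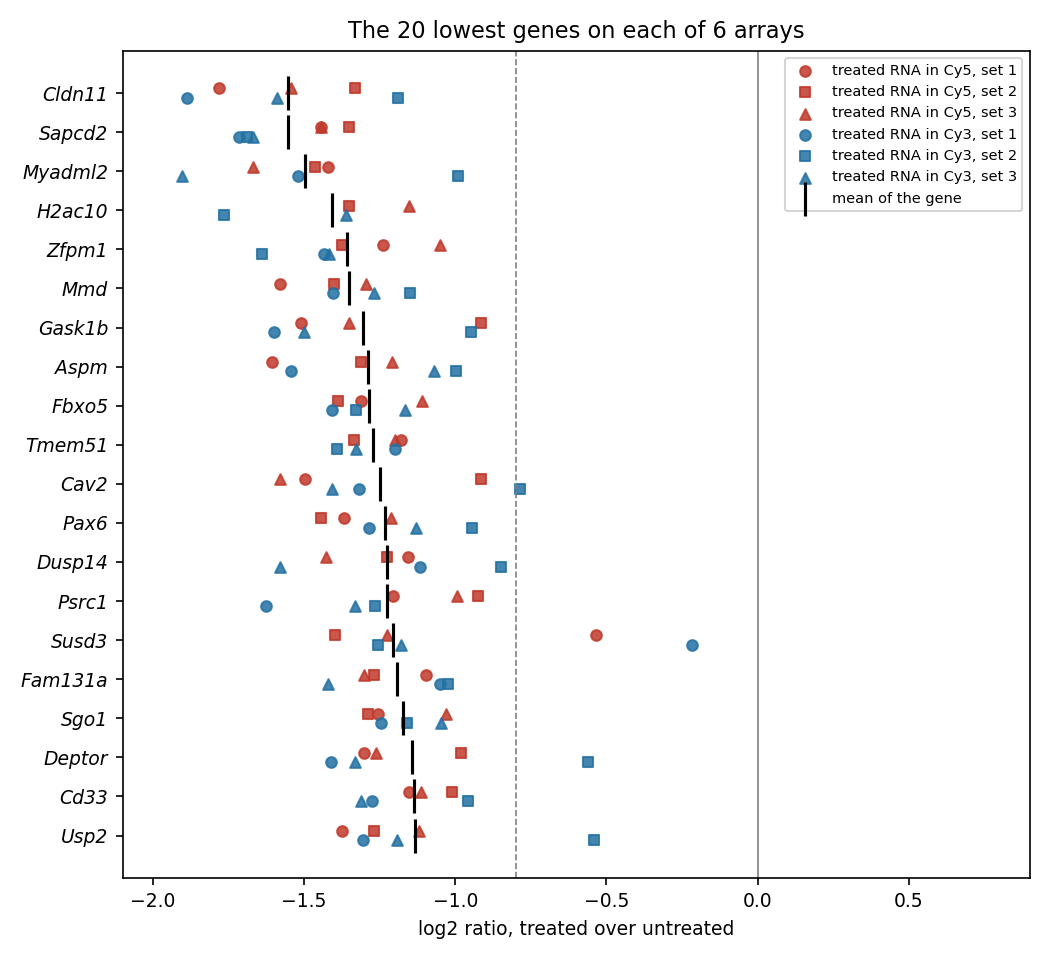
Log2 ratio of treated over untreated RNA (horizontal axis) for the 20 lowest genes on each of the 6 arrays, with colour for the dye that carried treated RNA, shape for the set, a bar at the gene's mean, a dashed line at -0.8 and a solid line at 0. All points lie below 0, and the set 2 squares of Gask1b, Cav2 and Deptor lie to the right of their other points.

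The spindle, kinetochore, centrosome and mitosis genes formed the largest role, with 32 genes between -1.55 and -0.81 and a median of -0.91. Sapcd2, a partner of the spindle orientation protein LGN, had ratios of -1.44, -1.35 and -1.44 in sets 1, 2 and 3 with treated RNA in Cy5, and -1.72, -1.69 and -1.67 with treated RNA in Cy3. Its fall was close to 2.93-fold in every set (mean log2 ratio -1.55 ± 0.03, SD, n = 3 sets). LGN itself, encoded by Gpsm2, was also a lowered gene, at -0.81 ± 0.11. Aspm, which focuses microtubules at spindle poles, read -1.61, -1.31 and -1.21 with treated RNA in Cy5 and -1.54, -0.997 and -1.07 with treated RNA in Cy3. Set 1 gave its lowest values in both orientations. Fbxo5, also called Emi1, holds back the anaphase-promoting complex until mitosis, and it read -1.31, -1.39 and -1.11 with treated RNA in Cy5 and -1.41, -1.33 and -1.17 with treated RNA in Cy3.

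Psrc1, a microtubule regulator of the spindle, read -1.21, -0.92 and -0.99 with treated RNA in Cy5 and -1.63, -1.27 and -1.33 with treated RNA in Cy3, so each set was lower in the Cy3 orientation. Sgo1 is shugoshin, which protects the cohesin between sister centromeres until anaphase. It read -1.26, -1.29 and -1.03 with treated RNA in Cy5 and -1.25, -1.16 and -1.05 with treated RNA in Cy3, and set 3 was the least lowered in both. Genes of the late spindle and of cytokinesis included Prc1, which bundles midzone microtubules, at -1.08 ± 0.08, Ect2, an exchange factor that acts at the cleavage furrow, at -0.92 (5 arrays), and its activator Racgap1 at -0.82 ± 0.18. Kinetochore genes included Ska1 at -1.01 ± 0.13, Nuf2 of the Ndc80 complex at -1.003 ± 0.05 and Knstrn at -0.82 ± 0.02. Mad2l1 and Ttk, which encode the checkpoint protein MAD2 and the checkpoint kinase MPS1, stood at -0.86 ± 0.17 and -0.82 ± 0.13.

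Mitotic kinases were present as Melk (-0.90), Wee1 (-0.88), which keeps CDK1 inactive before mitosis, Pbk (-0.87), Haspin (-0.84), which phosphorylates histone H3, and Nek2 (-0.82), which separates centrosomes. Haspin had values on 5 arrays. Nek2 had a second probe with 3 values, at -2.42, 2.40 and 2.73, which the minimum of 4 values left out. The transcription factors Foxm1 and Mybl2, which drive mitotic genes, read -0.86 ± 0.07 and -0.84 ± 0.07. Mki67, the proliferation marker Ki-67 that coats mitotic chromosomes, read -1.04 ± 0.11, and Top2a read -0.95 ± 0.15. Fam83d, which positions a kinesin on the spindle, read -1.11 ± 0.11, and Nusap1, a spindle microtubule bundler, -0.89 ± 0.29.

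Centriole and centrosome genes also appeared here, and some of them act in cilia as well as in division. Tube1 (epsilon-tubulin) read -1.07 ± 0.03, Aunip, a partner of Aurora A, -1.03 ± 0.04, and Haus4, a subunit of the augmin complex that branches spindle microtubules, -0.96 ± 0.13. Cep72 (-0.93), Cep131 (-0.85), Hyls1 (-0.84) and Mdm1 (-0.83) are centriole or centriolar satellite genes. Mdm1 varied little, between -0.88 and -0.79 over the 6 arrays.

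The DNA replication, repair and histone genes were 15, between -1.41 and -0.80 with a median of -0.93. H2ac10, a replication-dependent histone H2A gene, had no value in set 1, and it read -1.35 and -1.15 in sets 2 and 3 with treated RNA in Cy5 and -1.77 and -1.36 with treated RNA in Cy3. Histone genes of a cluster are near-identical in sequence, so its probe and that of the linker histone gene H1f2 (-0.95 ± 0.09) may read several copies. Tcf19, a factor expressed as cells enter S phase, read -1.24, -1.35 and -1.08 with treated RNA in Cy5 and -1.07, -0.95 and -0.87 with treated RNA in Cy3. Every set was lower in the Cy5 orientation. Ube2t, the ubiquitin-conjugating enzyme of the Fanconi anaemia pathway, read -1.07, -0.92 and -0.83 with treated RNA in Cy5 and -1.23, -1.18 and -0.98 with treated RNA in Cy3.

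Licensing and synthesis of DNA were represented by Gmnn, geminin, which blocks a further round of origin licensing, at -0.997 ± 0.08, by Rrm2, the small subunit of ribonucleotide reductase, at -0.81 ± 0.15, and by Lrr1, which helps to unload the replicative helicase, at -0.80 ± 0.08. Repair genes were the nuclease Exo1 (-0.98 ± 0.11), the damage sensor Ddb2 (-1.0003 ± 0.19), Brca1 (-0.92 ± 0.12), the recombination genes Fignl1 (-0.93 ± 0.22) and Parpbp (-0.90 ± 0.25), Mrnip (-0.90 ± 0.12), which binds the MRN complex, the checkpoint kinase Chek2 (-0.88 ± 0.08) and the histone variant H2ax (-0.87 ± 0.16). Fignl1 and Parpbp had the widest spread over sets among these. Chek1, the other checkpoint kinase, was outside the thresholds at -0.55, whereas Brca2 stood at 0.09.

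Transcription and chromatin genes were 9, between -1.36 and -0.95 with a median of -1.06. Zfpm1, also called FOG-1, is the cofactor of GATA factors in blood cells. It read -1.24, -1.37 and -1.05 with treated RNA in Cy5 and -1.43, -1.64 and -1.42 with treated RNA in Cy3, and set 2 was its lowest in both. Pax6, a paired-box factor of the eye, brain and pancreas, read -1.37, -1.45 and -1.21 with treated RNA in Cy5 and -1.29, -0.95 and -1.13 with treated RNA in Cy3. Of the other 6 measured Pax genes, 0 passed limma's test in either direction, also at an unadjusted p under 0.05. Cbx6, a Polycomb chromobox protein, read -1.14, -1.18 and -1.03 with treated RNA in Cy5 and -1.04, -1.15 and -0.99 with treated RNA in Cy3. Its 2 probes averaged -1.31 and -0.87. The first was lower in the Cy5 orientation in every set and the second in the Cy3 orientation, so these differences offset each other in the average.

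The remaining transcription and chromatin genes were Ctnnbip1, an inhibitor of beta-catenin, at -1.07 ± 0.09, the nucleosome-binding protein gene Hmgn3 at -1.06 ± 0.19, Hmgb3 at -1.01 ± 0.03, Lyl1, a bHLH factor of blood stem cells, at -0.96 ± 0.10, the inhibitory Smad gene Smad6 at -0.95 ± 0.07 and the ETS factor gene Elk3 at -0.95 ± 0.21. Of 5 other measured Cbx genes, 4 passed as lower, with Cbx3 at -0.47 ± 0.13, Cbx8 at -0.41 ± 0.03, Cbx5 at -0.38 ± 0.10 and Cbx2 at -0.34 ± 0.18. Cbx1 stood at -0.06 ± 0.03 (adjusted p = 0.379 in limma).

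Intracellular signalling and protein turnover held 9 genes between -1.23 and -0.83, with a median of -0.93. Dusp14, a dual-specificity phosphatase, read -1.16, -1.23 and -1.43 with treated RNA in Cy5 and -1.12, -0.85 and -1.58 with treated RNA in Cy3, and set 3 was lowest in both. Deptor, a subunit that inhibits mTOR kinase, read -1.30, -0.98 and -1.26 with treated RNA in Cy5 and -1.41, -0.56 and -1.33 with treated RNA in Cy3. Set 2 was its weakest in both. Usp2, a deubiquitinase of cyclin D1 among others, read -1.38, -1.27 and -1.12 with treated RNA in Cy5 and -1.31, -0.54 and -1.19 with treated RNA in Cy3, with the Cy3 array of set 2 apart from the other 5.

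The p53 target genes Zmat3 and Phlda3 read -0.91 ± 0.06 and -0.83 ± 0.07. Ddb2, described above, is a known p53 target as well. The p53 targets Mdm2 and Btg2 went the opposite way, at 0.94 ± 0.12 and 0.83 ± 0.17. No list of p53 targets was read, so the direction of p53 targets as a set was not tested. Also in this role were the F-box gene Fbxo31 at -0.94 ± 0.09, the scaffold gene Frmd4b at -0.93 ± 0.16, the IKK-binding protein gene Ikbip at -0.88 ± 0.08 and the RASSF family gene Rassf3 at -0.88 ± 0.32. Among 12 other measured Dusp genes, 4 passed as higher and 1 as lower. The highest was Dusp2 at 1.97 ± 0.07, with Dusp1 at 0.77 ± 0.08, Dusp6 at 0.74 ± 0.04 and Dusp16 at 0.67 ± 0.06, while Dusp22 read -0.24 ± 0.03. Dusp1, Dusp2, Dusp6 and Dusp16 encode phosphatases of MAP kinases.

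Cell surface and membrane genes were 11, between -1.55 and -0.80, and their median of -1.21, the value of Susd3 described below, was the lowest among the roles. Cldn11, the claudin of tight junctions in myelin and Sertoli cells, read -1.78, -1.33 and -1.54 with treated RNA in Cy5 and -1.89, -1.19 and -1.59 with treated RNA in Cy3. Set 2 was its weakest in both orientations, and no array lay above -1.19. Of 16 other measured claudin genes, 0 passed as lower in limma (0 at an unadjusted p under 0.05) and 2 as higher, Cldn15 at 0.57 ± 0.14 and Cldn13 at 0.43 ± 0.21. Myadml2, a predicted membrane protein gene of the MARVEL class, read -1.42, -1.47 and -1.67 with treated RNA in Cy5 and -1.52, -0.99 and -1.90 with treated RNA in Cy3.

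Mmd, a gene of the progestin and adipoQ receptor family named for its rise as monocytes mature, read -1.58, -1.40 and -1.30 with treated RNA in Cy5 and -1.40, -1.15 and -1.27 with treated RNA in Cy3. Its arrays lay close together. Tmem51, a transmembrane protein gene of little known function, read -1.18, -1.34 and -1.20 with treated RNA in Cy5 and -1.20, -1.39 and -1.33 with treated RNA in Cy3. Cav2, caveolin-2, read -1.50, -0.92 and -1.58 with treated RNA in Cy5 and -1.32, -0.79 and -1.41 with treated RNA in Cy3. Both of its set 2 values lay above all 4 others. Cav1, its neighbour on chromosome 6 and its partner in caveolae, read -0.03 ± 0.02 (adjusted p = 0.635 in limma).

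Cd33, an inhibitory sialic acid receptor of myeloid cells, read -1.15, -1.01 and -1.11 with treated RNA in Cy5 and -1.28, -0.96 and -1.31 with treated RNA in Cy3. Susd3, a sushi-domain gene, averaged -1.21 over its 2 probes, but the probes disagreed, at -1.80 over 4 arrays and -0.61 over 6. Averaged by array, it read -0.54, -1.40 and -1.22 with treated RNA in Cy5 and -0.22, -1.26 and -1.18 with treated RNA in Cy3. Its set 1 values rest on the weaker probe alone, and its set means averaged -0.97 ± 0.52. Itgb5, the integrin beta-5 subunit, read -1.02 ± 0.12, whereas 1 of 7 other measured Itgb genes passed as lower and 1 as higher. Tmem273 (-0.99 ± 0.04), Tmem144 (-0.93 ± 0.03) and Tmem218 (-0.80 ± 0.04) are less studied transmembrane protein genes with little spread.

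Secreted, matrix and Golgi genes were 6, between -1.30 and -0.81 with a median of -0.97. Gask1b, a Golgi-associated kinase gene, read -1.51, -0.92 and -1.35 with treated RNA in Cy5 and -1.60, -0.95 and -1.50 with treated RNA in Cy3. Lrrc17, a secreted leucine-rich repeat protein that restrains osteoclast formation in mice, read -1.21, -0.71 and -1.27 with treated RNA in Cy5 and -1.36, -0.59 and -1.46 with treated RNA in Cy3. St8sia4, a polysialyltransferase, read -1.36, -0.97 and -1.22 with treated RNA in Cy5 and -1.11, -0.76 and -1.08 with treated RNA in Cy3. In each of the 3, set 2 was the weakest in both orientations. The others were the growth factor gene Pdgfa at -0.86 ± 0.16, the cartilage matrix gene Matn3 at -0.84 ± 0.32 and Fut7, the fucosyltransferase that builds selectin ligands, at -0.81 ± 0.36.

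Of the cytoskeletal and mitochondrial genes, Mtfp1, a mitochondrial fission protein gene, read -1.04, -1.20 and -0.96 with treated RNA in Cy5 and -0.99, -0.96 and -0.86 with treated RNA in Cy3. Add3, gamma-adducin of the membrane skeleton, read -0.82, -0.91 and -0.86 with treated RNA in Cy5 and -0.90, -0.84 and -0.90 with treated RNA in Cy3. Rmnd1, a factor of mitochondrial translation, read -0.71, -0.94 and -0.94 with treated RNA in Cy5 and -0.68, -0.98 and -0.98 with treated RNA in Cy3, and set 1 was its weakest in both. Fam131a, little characterised, read -1.10, -1.27 and -1.30 with treated RNA in Cy5 and -1.05, -1.02 and -1.42 with treated RNA in Cy3. A RIKEN clone gene at -0.95 ± 0.02 completed the 87.

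The lowered genes deviated together within a set. After each orientation's mean was taken off, the deviations of the lowered genes in the Cy5 array and the Cy3 array of a set correlated at r = 0.83, 0.60 and 0.76 in sets 1, 2 and 3. Between different sets of opposite orientation r lay between -0.45 and -0.25. These negative values add nothing, because a gene's deviations cancel within an orientation once its mean is taken off. Positive same-set values then push the others below 0. For all genes the same-set values were -0.28, -0.23 and -0.09. For the 367 genes at 0.8 or above with every array above 0 they were 0.54, 0.47 and 0.58, and for the 491 genes between -0.8 and -0.4 they were 0.51, 0.25 and 0.39. These values describe points that share arrays and probes, and carry no p.

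Set 2 gave the weakest fall in 43 of the 86 lowered genes with values in 3 sets, in 564 of 1504 other genes called lower, and was the highest set in 3522 of 9918 genes overall. The difference of set 2 from the mean of sets 1 and 3 had a median of 0.55 over the secreted, matrix and Golgi genes, where 5 of 6 were weakest in set 2, against 0.06 over the spindle and replication genes. It was 0.67 for Lrrc17, 0.60 for Cav2 and Fut7, 0.56 for Gask1b and Deptor, 0.53 for Matn3 and 0.44 for Cldn11. Zfpm1 differed the other way at -0.22, and so did Susd3 at -0.54, where the probes behind set 1 differ. In a limma F test of the set term, run on the same values and chosen after they were seen, 0 of 86 lowered genes passed an adjusted p under 0.05, as did 0 of 9918 genes (percent called 0), and 21 and 581 had an unadjusted p under 0.05. The arrays of set 2 had 1373 and 1328 features listed at exactly 0, against 1945 to 2262 on the arrays of sets 1 and 3, and the part of this in the set differences was not tested.

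**Figure D3:**
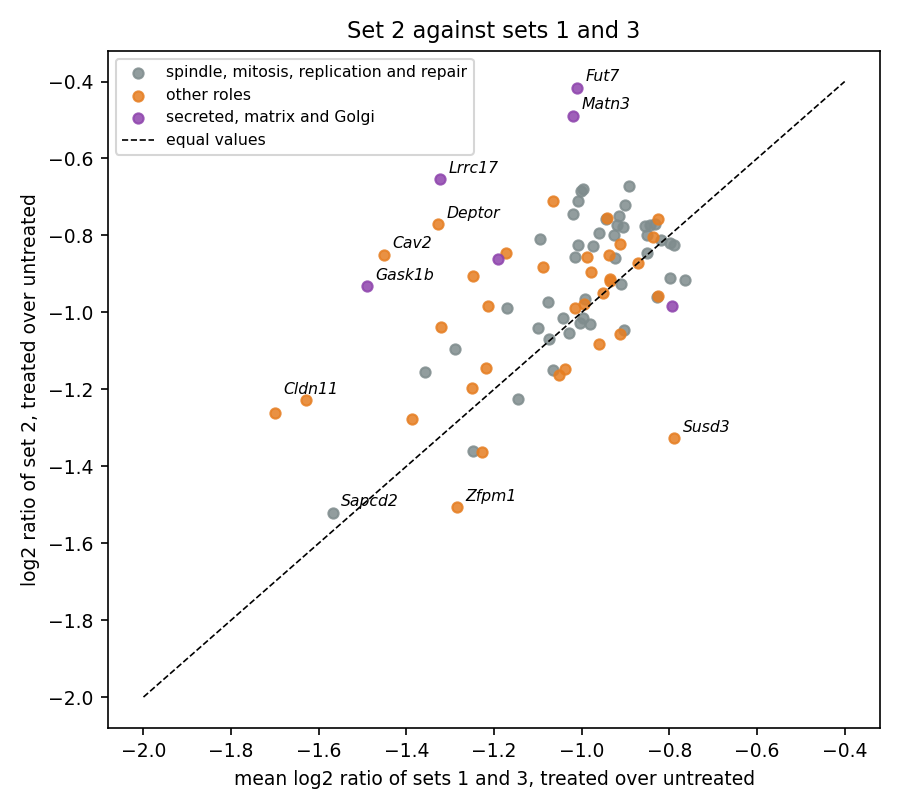
Log2 ratio of treated over untreated RNA in set 2 (vertical axis) against the mean of sets 1 and 3 (horizontal axis) for the 86 lowered genes with 3 set means, coloured by role, with a dashed line of equal values. Lrrc17, Cav2, Fut7, Gask1b, Deptor and Matn3 lie 0.53 to 0.67 above the line, and Susd3 lies 0.54 below it.

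The dye orientations were compared on the same array values that chose the genes, so the counts are a description and nothing is read from them. In a limma fit with an orientation term, 0 of the 87 lowered genes had an adjusted p under 0.05, against 3.13% of all genes. An unadjusted p under 0.05 was found for 14 of the 87 (16.1%), against 2747 of the other 10093 genes (27.2%). Sapcd2 read -1.41 when treated RNA was in Cy5 and -1.69 when it was in Cy3, a difference of 0.28. Racgap1 had the largest difference at 0.49, with means of -0.57 in the Cy5 orientation and -1.06 in the Cy3 orientation. Fam83d followed at 0.44, with -0.89 in Cy5 and -1.33 in Cy3. Ddb2 differed by -0.42, with -1.21 in Cy5 and -0.79 in Cy3. Of the 13 lowered genes with 2 probes, 10 had probe means within 0.3 of each other, and the gap was 1.19 in Susd3.

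The thresholds cut through a continuous range. The 5 genes just inside were Fut7 and Gpsm2 at -0.81, Rrm2 at -0.81, Tmem218 at -0.803 and Lrr1 at -0.802. The 5 just outside were Zik1 at -0.7999, Brd3 at -0.799, Spc24 at -0.797, Adcy6 at -0.796 and Angptl4 at -0.796. The 18 genes left out by name reached further down, with Cytip at -2.09, Id2 at -1.76, Tk1 at -1.51 and Esco2 at -1.45, and the others between -1.23 (Cenpf) and -0.82 (Cdkn2c).

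Other genes of the same pathways were read from lists, each without the 105 genes past the thresholds, among 10075 such genes of which 14.9% passed as lower and 16.7% as higher. Of 35 other cell cycle and mitosis genes, 30 passed as lower and 0 as higher in limma (1 higher at an unadjusted p under 0.05, and 1 adjusted with treated RNA in Cy5 alone), with a median of -0.58 against -0.01 for all 10075. The lowest were Spc24, a further Ndc80 complex gene, at -0.80 ± 0.11, and Trip13, which recycles MAD2, at -0.79 ± 0.04. Of 43 DNA replication and histone genes, 34 passed as lower and 1 as higher (median -0.45), with the clamp loader gene Rfc4 at -0.77 ± 0.11 and the maintenance methyltransferase gene Dnmt1 at -0.77 ± 0.04. The 1 that rose was the linker histone gene H1f5 at 0.43 ± 0.15, which lost its call with treated RNA in Cy3 alone and without set 3.

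Of 32 nucleotide metabolism genes, 15 passed as lower and 6 as higher. Dut, which removes dUTP, read -0.68 ± 0.07, whereas the dNTP hydrolase gene Samhd1 rose at 1.82 ± 0.05 and Pnp at 2.11 ± 0.05, opposite to Rrm2. Fatty acid, phospholipid and sterol enzymes had 19 lower and 8 higher of 48, but their median was -0.06. The lowest were the desaturase gene Scd1 at -0.77 ± 0.05 and the lipin gene Lpin1 at -0.76 ± 0.04. The highest were Agpat4 at 1.30 ± 0.08 and Acsl4 at 0.71 ± 0.03. Of 8 genes related to Mmd and Gask1b by family, Paqr7 (-0.62 ± 0.10) and Paqr4 (-0.45 ± 0.21) passed as lower in limma and 0 as higher, also without adjustment. Paqr4 lost its call without set 3 (adjusted p = 0.0656 in limma) and with treated RNA in Cy3 alone, at -0.27 (adjusted p = 0.356 in limma), where its set 2 array read 0.20. Without set 1, 4 of the 8 passed as lower. Of 38 GATA and other blood transcription factor genes, 6 passed as lower and 8 as higher, with the LIM cofactor gene Ldb1 at -0.35 ± 0.09 and Bcl6 at 0.66 ± 0.08. Some of these counts fell without set 3, as did calls over all genes, from 1610 to 728 lower and from 1680 to 937 higher. Without it, 8 nucleotide genes, 12 lipid genes, 1 relative of Mmd and Gask1b and 0 blood factor genes passed as lower. In the same order, 3, 5, 0 and 5 passed as higher. Without set 2, 9 nucleotide genes passed as lower.

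In the lists that follow, more genes passed as higher than as lower, except among ion channels and transporters. Homeostatic macrophage receptors and markers had 9 lower and 22 higher of 53, with the inhibitory receptor gene Sirpa at -0.70 ± 0.03 on the side of Cd33, and Lilrb4a at 2.92 ± 0.13 opposite to it. Of 52 junction and adhesion genes, 5 passed as lower, among them Tjp3 (-0.63 ± 0.10) and Icam2 (-0.47 ± 0.07), and 11 as higher. TGF-beta and BMP signalling had 3 lower and 11 higher of 34. The higher genes included Tgif1 at 0.96 ± 0.10 and Skil at 0.62 ± 0.13, both transcriptional repressors of Smad signalling. The lower genes included Smad3, next to Smad6 in chromosome order, at -0.70 (values in 2 sets), and Tgfbr1 at -0.33 ± 0.07. Smad3 lost its call with zeros kept as values and with treated RNA in Cy3 alone, and Tgfbr1 without set 3. G-protein-coupled receptors and their regulators had 9 lower and 18 higher of 55, and growth factor feedback genes 5 and 10 of 41. FOXO targets and growth-arrest genes had 8 lower (24.2%) and 9 higher (27.3%) of 33. Ion channels and transporters had 11 lower (23.9%) and 10 higher (21.7%) of 46. These last 2 lists stood above the shares of all genes, 14.9% lower and 16.7% higher, in both directions. Calls over all genes fell without set 3, to 728 lower and 937 higher. The counts of lower genes then fell to 4 macrophage receptor genes, 4 receptor and regulator genes (5 without set 1) and 5 FOXO targets. They fell to 2 channels and transporters, 1 growth factor feedback gene and 0 TGF-beta genes. The counts of higher genes fell without set 3 to 7 junction and adhesion genes (also 7 without set 2), 7 TGF-beta genes and 4 growth factor feedback genes. With treated RNA in Cy3 alone they were 7, 5 and 6.

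**Figure D4:**
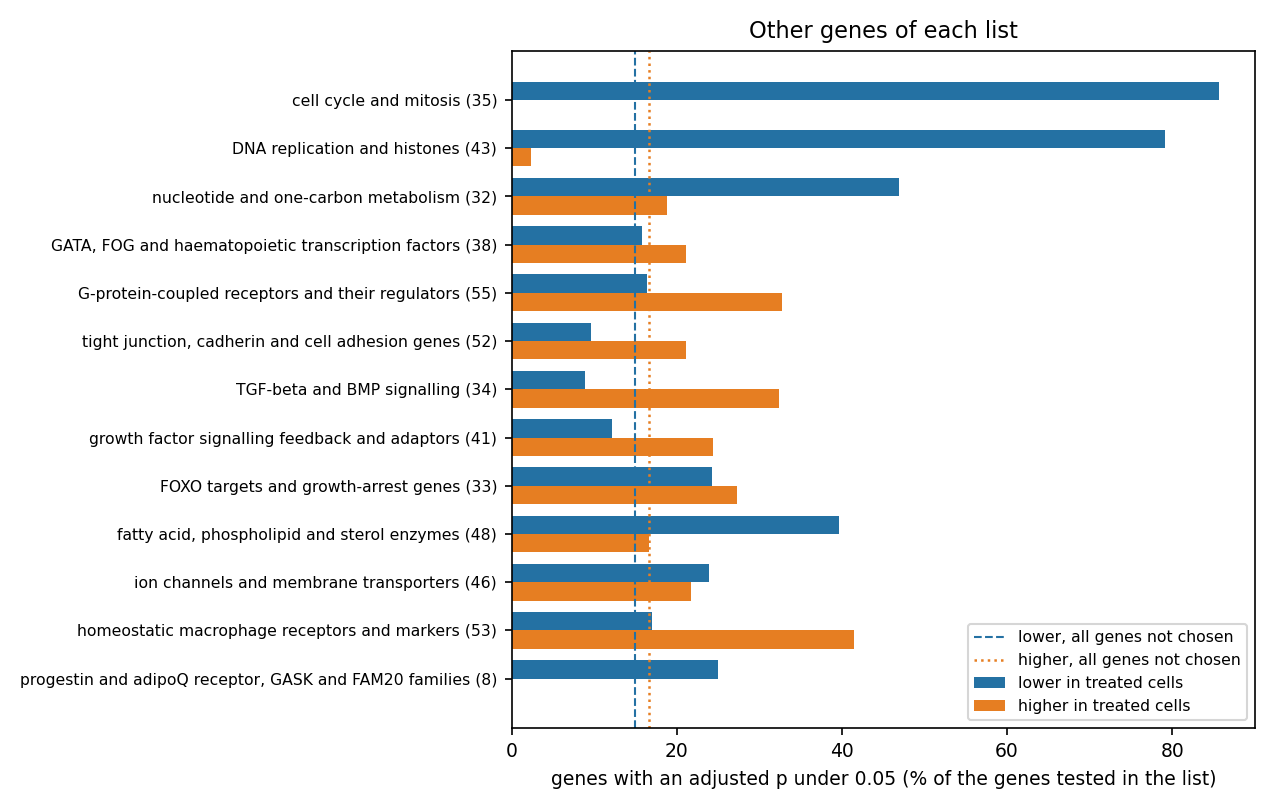
Share of tested genes (%, horizontal axis) with a limma adjusted p under 0.05 in each gene list, without the 105 genes past the thresholds. Bars give genes lower and higher in treated cells, the number in brackets is the number tested, and the vertical lines mark the shares over 10075 genes, 14.9% lower and 16.7% higher. Cell cycle and mitosis genes (30 of 35 lower) and DNA replication and histone genes (34 of 43 lower) stand furthest right.

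Relatives were counted by symbol. Of 203 other genes that share a symbol stem with a lowered gene, 41 (20.2%) passed as lower and 35 (17.2%) as higher. Over the 10075 genes not past the thresholds, 14.9% passed as lower and 16.7% as higher. Falls were found with Haus5 at -0.64 ± 0.11 and Haus8 at -0.60 ± 0.09, in the complex of Haus4, and Hmgb2 at -0.49 ± 0.22, whereas Haus7 stood at 0.01 ± 0.05 and Haus2 at 0.05 ± 0.03. Of 170 measured neighbours in chromosome order, 39 (22.9%) passed as lower and 26 (15.3%) as higher. Without set 3, where calls over all genes fell as well, 21 relatives and 20 neighbours passed as lower and 19 and 15 as higher. Gask1b and Tmem144 lie next to each other on chromosome 3, and both were lowered genes. Pbk lies beside Esco2 (-1.45), and Knstrn beside Bub1b (-0.77), while Mrnip lies beside Sqstm1, the autophagy receptor gene p62, which read 1.28.

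The arrays hold ratios and no channel intensities, so the levels of cell type markers could not be read. Of 9 macrophage marker genes, 2 passed as lower, Fcgr3 (-0.72 ± 0.32) and Csf1r (-0.19 ± 0.06), and 4 as higher, among them Adgre1 at 1.16 ± 0.12 and Lyz2 at 1.21 ± 0.12. Without set 3, where calls over all genes fell as well, 0 of the 9 passed as lower, and without set 1 or set 2, 1 did. Of 18 marker genes of other cell types, 0 passed in either direction in limma (0 lower and 2 higher at an unadjusted p under 0.05), and their median was 0.00. Without set 1, 1 of these passed as lower and 2 as higher, and without set 2, 1 passed as higher. Over the 6 arrays, 8.16% to 13.9% of 16281 features were listed at exactly 0 and treated as missing, and array medians without them lay between -0.02 and 0.01.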

How the data were processed

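Each array came from the authors as 1 deposited log2 ratio of the 2 dyes for each feature. The base is inferred from the maximum of 6.64, which is log2 of 100. Scanner, background correction, dye normalization and the direction of the ratio are all not given in the sources used here. Of 16281 features, 13738 had 1 gene symbol in the platform annotation, 52 had several and 2491 had none. Ratios were turned to treated over untreated, exact zeros were set to missing, features with at least 4 values were kept, and the probes of a gene were averaged.

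Both arrays of a set were averaged, and the 3 set means were tested against 0 with limma 3.58.1 (lmFit and eBayes, R 4.3.3, two-sided) over 10180 genes, with Benjamini-Hochberg adjustment at 0.05. The same fit on simulated data with known changes was checked first. An SD is over the set means of a gene. With no intensities, precision could be judged only from the number of arrays, the spread over sets and arrays, and the agreement of probes. Alternatives were other treatments of zeros, scaling, probes and dyes, other thresholds, left-out sets and a replicate block.

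The genes, the gene lists and the tests were chosen with earlier results of these data known. Roles were assigned, and relatives and neighbours named, after the values were seen. Ratios on every array are given for the 20 lowest genes and the 3 lowest of each role, and from each list the 2 lowest and 2 highest that passed were eligible. Protein sequences were not used here, and 1 gene list is not reported here.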

Additional observations from a re-analysis of the deposited data

Results flagged for a closer look

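Features without a single gene symbol were outside the choice of genes, and 21 of the 1928 with at least 4 values had a mean log2 ratio of -0.8 or below and a value below 0 on every array. Their means lay between -1.89 and -0.81, and each of the 21 had no symbol at all. They made up 1.09% of the unnamed features, against 1.18% (149 of 12605) of the named ones. The lowest read -2.21, -1.62 and -2.07 in sets 1, 2 and 3 with treated RNA in Cy5, and -2.21, -1.26 and -1.95 with treated RNA in Cy3, below the lowest named gene of the 87.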

How the results depend on the processing

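No lowered gene changed sign under any alternative. For single dye orientations and left-out sets this was largely fixed in advance, since the rule required values below 0 on every array. Of the 87, 60 were chosen under every setting of zeros, scaling, dye orientation and left-out set that was run. The rule chose 158 genes when limited to treated RNA in Cy5 (79 of the 87 among them), 135 at a threshold of -0.7 and 38 at -1.0, and 81 to 105 without 1 set. The median over the original 87 genes was -1.06 after quantile normalization and -1.003 to -0.95 without 1 set. With zeros kept as values 82 genes were chosen, and H2ac10, Fignl1, Ect2, Haspin and Nek2 dropped out. Requiring every probe to pass removed Susd3, Add3 and Ttk. Over all genes, 728 to 1503 passed as lower and 937 to 1592 as higher without 1 set, with the lowest counts without set 3. Over the lists, 97 to 147 passed as lower and 79 to 116 as higher. Relatives by symbol gave 21 to 37 lower and 19 to 30 higher, and neighbours 20 to 39 and 15 to 28. Genes with a dye term numbered 115 with zeros kept, 582 with the replicate block and 0 to 6 without 1 set. Both arrays of a set were averaged because the labels give them 1 number. Over all genes, arrays of a set did not deviate together (r of -0.28, -0.23 and -0.09), but over the lowered genes they did (0.83, 0.60 and 0.76), so whether the numbers mark shared RNA is not settled by these values. The replicate block gave 1809 lower and 1819 higher genes, against 1867 and 1890 without it on 6 arrays. Of the other values, 51 of 390 list counts moved by over 1.5 times, and 23 values of named list genes lost their call. The causes of these shifts were not tested. Ratios alone give no signal over background, so no limit from dim features can be stated.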
